A study of Mus musculus with 6 samples.

Results

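The 10 immediate early genes followed here, of the 21017 genes in the deposited count table, were the EGR zinc finger factors Egr1, Egr2 and Egr3, the NR4A nuclear receptors Nr4a1, Nr4a2 and Nr4a3, and Ier2, Ier3, Gem and Myc. They were matched by gene symbol, with earlier results of these data known, and all 10 had a row. RNA sequencing had been done on group 2 innate lymphoid cells (ILC2s), lung-resident lymphocytes that make type 2 cytokines without a rearranged antigen receptor. The cells came from lungs of 8-week-old C57BL/6J mice of the genotype IL-10GFP, which report Il10 by green fluorescence. All mice had received 3 intranasal doses of 0.5 µg recombinant IL-33, an alarmin that activates ILC2s. All sorted cells had then been cultured for 48 h with recombinant IL-2, IL-7 and IL-4, each at 10 ng/mL, before a second sort separated IL-10-producing from IL-10-negative cells. Each population was represented by 3 libraries. Whether the libraries stem from different mice, mouse pools or cultures is not given in the labels, and the p-values therefore cover library-to-library spread, possibly technical only. The cell type label calls the cells freshly sorted, although the protocol describes the culture.

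Immediate early genes are transcribed within minutes of a stimulus from factors that are already present, and their RNAs are short-lived, so that their level reflects recent signalling. In lymphocytes, signals through Ras and ERK act on serum response factor (SRF) and its ternary complex partners to switch on Egr1, while calcium signals act through MEF2, CREB and NFAT factors on the NR4A genes and on Egr2 and Egr3. EGR and NR4A proteins are DNA-binding factors, Egr2 and Egr3 being known as restraints on activated T cells. Ier3 encodes a small stress-induced protein that influences survival, Gem a Ras-like GTPase that inhibits voltage-gated calcium channels, and Myc the factor that drives growth and biosynthesis.

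The DNA upstream of 5 of the 10 genes was available in the RefSeq promoter table (build GRCm38.p6). The 250 bases before the start are given 5′ to 3′ for 4 of them, to set a gene that rose (Ier3), one that fell (Nr4a3) and a pair that did not pass the test (Egr2 and Nr4a1) side by side. Capitals mark matches, on either strand, to TGACGT (the core bound by CREB), GCGNGGGCG (the EGR site), the CArG box bound by SRF, AAAGGTCA (the site of NR4A monomers) or the NF-kB site.
Ier3: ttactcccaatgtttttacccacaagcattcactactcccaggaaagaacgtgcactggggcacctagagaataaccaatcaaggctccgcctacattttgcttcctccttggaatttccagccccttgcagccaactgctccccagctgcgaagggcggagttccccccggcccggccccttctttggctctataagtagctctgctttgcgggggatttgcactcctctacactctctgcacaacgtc
Nr4a3: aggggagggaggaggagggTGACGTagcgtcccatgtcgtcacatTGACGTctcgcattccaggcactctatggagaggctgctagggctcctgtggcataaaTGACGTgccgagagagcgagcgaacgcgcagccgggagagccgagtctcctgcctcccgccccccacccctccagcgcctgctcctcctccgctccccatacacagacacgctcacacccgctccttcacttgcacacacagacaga
Egr2: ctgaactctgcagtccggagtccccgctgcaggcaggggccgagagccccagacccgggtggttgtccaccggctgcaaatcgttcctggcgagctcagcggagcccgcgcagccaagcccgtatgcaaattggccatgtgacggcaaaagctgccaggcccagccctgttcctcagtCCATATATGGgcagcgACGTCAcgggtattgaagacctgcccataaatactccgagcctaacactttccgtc
Nr4a1: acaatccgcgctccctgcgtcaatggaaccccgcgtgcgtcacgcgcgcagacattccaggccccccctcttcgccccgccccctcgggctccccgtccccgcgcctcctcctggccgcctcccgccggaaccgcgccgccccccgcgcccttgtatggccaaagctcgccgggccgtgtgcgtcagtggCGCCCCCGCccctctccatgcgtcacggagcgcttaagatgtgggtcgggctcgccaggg
They lie at chr17:35821463-35821712 (Ier3, plus strand), chr4:48045055-48045304 (Nr4a3, plus strand), chr10:67537619-67537868 (Egr2, plus strand) and chr15:101266596-101266845 (Nr4a1, plus strand). The Egr2 window precedes one of 5 RefSeq starts of that gene. Of the other windows of Egr2, 1 held none of the motifs, 1 held a CArG box alone, and 2, which overlap the printed one, held the same pair. The printed window held a CArG box 72 bases before the start and, on the other strand, TGACGT 56 bases before it. Nr4a3 held TGACGT in 3 places, 231, 205 and 147 bases before the start, and Nr4a1 held an EGR site, on the other strand, 60 bases before it. Ier3 held none of the 5 motifs as spelled here. Nr4a2, whose window is not printed, held an EGR site 74 bases before the start. Sites of another spelling, such as an NF-kB site in the Ier3 window, are not excluded in any of these windows. Over 32851 RefSeq windows of the same length, TGACGT was found in 6.5%, the EGR site in 4.7%, the NF-kB site in 4.6%, the CArG box in 1.5% and AAAGGTCA in 1.3%. The matches are letters in a window and were not tested for binding.

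Of the 10 genes, Gem, Egr1 and Ier3 were higher in IL-10-producing cells, Nr4a3 and Egr3 were lower, and Egr2, Nr4a1, Nr4a2, Ier2 and Myc did not pass the test. Gem was 3.09-fold and Egr1 2.15-fold higher, whereas Ier2 and Myc, the genes of highest level per kilobase of transcript, stood within 1.03-fold of equal. The test was the quasi-likelihood F test of edgeR on all 16654 genes that passed a filter on low counts, with p-values adjusted over all of them (threshold 0.05). It called 35.7% of all genes, 17.1% as higher and 18.6% as lower, beside 3 and 2 of the 10. The 3 libraries of one population lay entirely above or below those of the other for 6 of the 10 genes, against 45.2% of all genes. Upward this held for 3 (Egr1, Ier3, Gem), against 21.7% of all genes, and downward for 3 (Egr3, Nr4a1, Nr4a3), against 23.5%. Of all calls 47.8% were upward, and 36.8% when libraries were scaled by their size only, a setting that changed no direction among the called members. Changes of at least 2-fold were rarer, at 0.739% of all genes upward and 2.92% downward, and 2 of the 10 genes (Gem, Egr1) rose by that much. Nr4a3 fell by that much, but it passed the low-count filter only through the IL-10-negative libraries, where it is high. It is counted above among the 2 lower, the 6 without overlap and the 3 downward. Its fall is not read against any share of all genes given here. When a 1.2-fold change was taken as the null (edgeR's glmTreat), the test called Gem and Egr1, beside 7.91% of all genes. It also called Nr4a3, which is not read against that share either. Levels are given as CPM, counts scaled to a common library size.

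**Figure D1:**
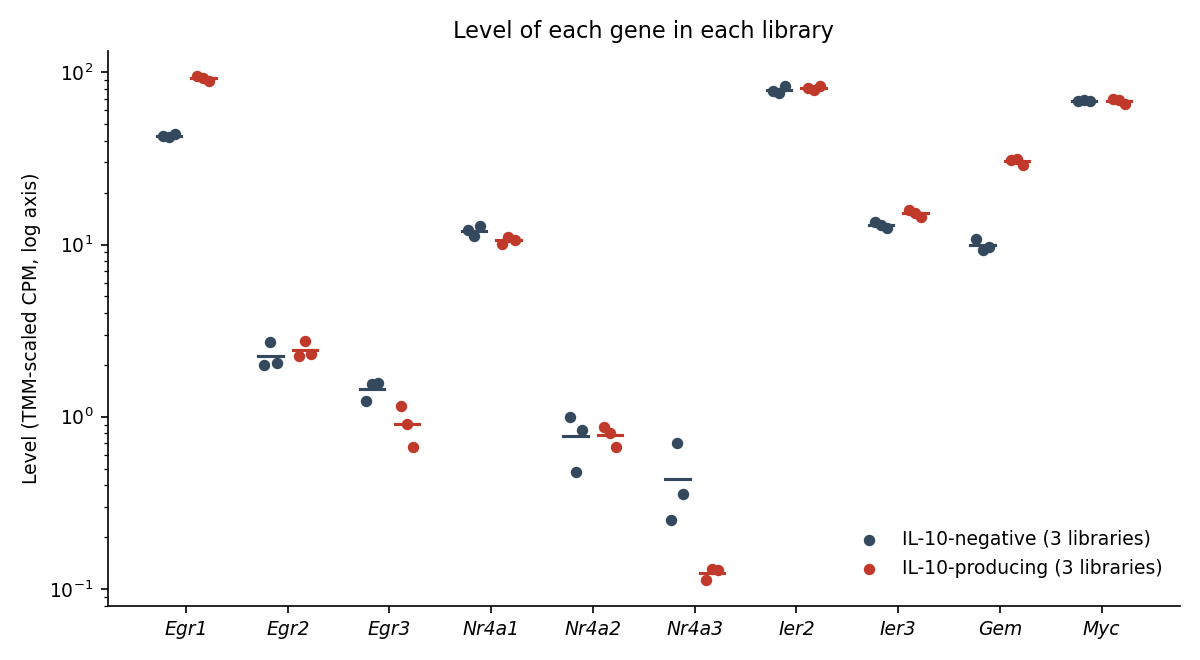
Level of each of the 10 genes in each library, in CPM (counts scaled to library size with TMM factors) on a log axis, with a line at the mean of 3 libraries. Egr1 and Gem lie far higher in the IL-10-producing libraries (red) than in the IL-10-negative ones (dark), Nr4a3 lies lower, and Ier2 and Myc lie at one level in both.

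Library totals ran from 47012941 to 69511433 counts. Il10, on whose reporter the cells were sorted, averaged 848 ± 7.78 CPM (SD, n = 3) where IL-10 was produced and 13.5 ± 0.608 CPM where it was not, as the labels have it. All 15 listed ILC2 markers were detected, and 5 of them were higher and 7 lower (Gata3, Il1rl1, Rora, Il13, Icos, Thy1 and Il17rb), with a median log2 fold change of -0.05. They summed to 17249 against 16396 CPM, of which Il2ra, the receptor chain for IL-2, made 5835 against 4206 CPM. Markers of other cells were unequal between the populations. T-cell markers summed to 110 to 111 CPM in IL-10-producing and 202 to 207 CPM in IL-10-negative libraries (14 of 15 lower, 1 higher). Lat (48.4 against 63.1 CPM) and Lef1, the 1 higher (41.5 against 33.1 CPM), made most of the IL-10-producing sum. The median log2 fold change of the T-cell markers was -2.67, a larger fall than that of the sum. Those of mast cells and basophils summed to 12.1 to 14.1 against 68.7 to 73.8 CPM (10 of 10 lower), those of neutrophils and eosinophils to 1.11 to 1.75 against 36.9 to 40.8 CPM (5 of 5 tested lower), and those of NK cells to 5.80 to 6.82 against 12.4 to 13.6 CPM (4 of 5 tested lower, 1 higher). Prf1, the 1 higher NK-cell marker, made 6.24 and 4.79 CPM of the NK-cell sums, and the median log2 fold change of that list was -5.29. The remaining lists differed less. Macrophage, monocyte and dendritic cell markers summed to 58.8 against 64.3 CPM (4 of 8 lower), B and plasma cell markers to 44.7 against 37.9 CPM (5 of 8 lower, 2 higher), and epithelial, endothelial and stromal markers to 122 against 108 CPM (2 of 4 lower, 1 higher). Of markers with a row, Ncr1 of NK cells and Siglech of dendritic cells were at 0 in all IL-10-producing libraries. In bulk RNA, fewer cells of a type and less RNA per cell cannot be told apart.

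The EGR family split. Egr1 (ENSMUSG00000038418.7, chromosome 18, 34859823 to 34864984), which encodes the zinc finger factor most directly driven by ERK and SRF, stood at 95.2, 92.3 and 88.7 CPM in the IL-10-producing libraries and at 42.8, 42.0 and 43.6 CPM in the IL-10-negative ones. The lowest IL-10-producing library was thus above the highest IL-10-negative one by more than the spread within either group. The means were 92.1 ± 3.26 and 42.8 ± 0.802 CPM (SD, n = 3), a log2 fold change of 1.11 (SE 0.0333, edgeR adjusted p = 1.07e-18). Among the 10400 tested genes with a mean of at least 5 CPM, Egr1 had the 10th largest log2 fold change.

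Egr2 (ENSMUSG00000037868.15, chromosome 10, 67535475 to 67542188), a restraint on T-cell activation and a factor of myelinating cells, stood at 2.25, 2.74 and 2.31 CPM in the IL-10-producing libraries, against 1.99, 2.73 and 2.04 CPM in the IL-10-negative libraries. The 2 groups overlapped, and the difference did not pass (log2 fold change 0.11, SE 0.160, edgeR adjusted p = 0.633). Egr3 (ENSMUSG00000033730.4, chromosome 14, 70077203 to 70082614), its close relative, stood lower still, at 1.15, 0.905 and 0.663 CPM in the IL-10-producing libraries, against 1.24, 1.54 and 1.56 CPM in the IL-10-negative libraries. All 3 IL-10-producing values lay below the IL-10-negative ones, though the nearest pair, 1.15 and 1.24 CPM, was close. Egr3 fell by 0.67 on the log2 scale (SE 0.229, edgeR adjusted p = 0.0251), from 242 counts in all in the IL-10-negative libraries to 155. Its call was lost without IL-10-producing replicate 2 (adjusted p = 0.0622) or 3 (0.110), and without IL-10-negative replicate 2 (0.0802) or 3 (0.0844). The lower markers of T cells, mast cells and granulocytes given above stand beside the falls of Egr3 and Nr4a3, and their part in those falls was not tested.

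The makeup of the EGR family moved with Egr1. Counted per kilobase of the longest GENCODE transcript, the family summed to 21.6 ± 0.791 CPM per kb in IL-10-producing and 10.7 ± 0.141 CPM per kb in IL-10-negative libraries (SD, n = 3). Egr1 made up 95.1% ± 0.392 of this in IL-10-producing and 89.4% ± 1.53 in IL-10-negative libraries, Egr2 3.81% ± 0.427 and 7.12% ± 1.30, and Egr3 1.06% ± 0.250 and 3.43% ± 0.394. For each of the 3 genes the shares of the populations did not overlap. The shares of a library add up to the whole, so these are not 3 separate results. A rise of Egr1 alone lowers the shares of Egr2 and Egr3, and the level of Egr2 itself did not pass the test (log2 fold change 0.11). The exact permutation test (two-sided) gave p = 0.1 for each share, the smallest that 3 against 3 libraries allow, and 0.15 after adjustment over 6 shares. In the NR4A family only the share of Nr4a3 did not overlap, at 0.492% ± 0.0269 and 1.56% ± 0.950 (exact permutation p = 0.1, adjusted 0.15). This difference of -1.07 percentage points was -0.527 without IL-10-negative replicate 2. Nr4a1 held 94.5% ± 0.750 and 94.1% ± 0.493 (exact permutation p = 0.4) and Nr4a2 4.99% ± 0.777 and 4.29% ± 1.33 (exact permutation p = 0.5). The NR4A family summed to 4.39 ± 0.186 and 5.00 ± 0.338 CPM per kb (SD, n = 3).

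**Figure D2:**
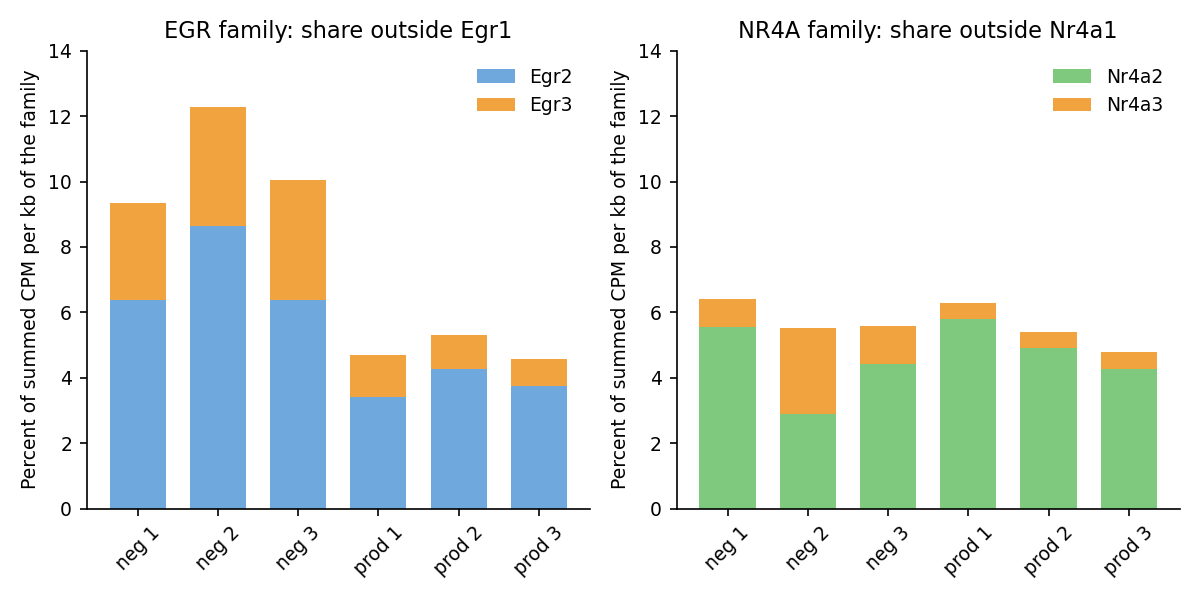
Share of Egr2 and Egr3 in the EGR family (left) and of Nr4a2 and Nr4a3 in the NR4A family (right), in percent of the family's summed CPM per kb, for IL-10-negative (neg) and IL-10-producing (prod) libraries 1 to 3. Egr1 and Nr4a1 make up the rest of each bar to 100% and are not drawn; the EGR bars are lower in all IL-10-producing libraries, and the NR4A bars of the populations overlap.

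The NR4A receptors, orphan nuclear receptors that bind DNA without a known ligand, did not share the rise of Egr1. Nr4a1 (Nur77, ENSMUSG00000023034.7, chromosome 15, 101254269 to 101274795), a common reporter of antigen receptor signals, stood at 10.1, 11.1 and 10.6 CPM in the IL-10-producing libraries, against 12.1, 11.2 and 12.8 CPM in the IL-10-negative libraries. The groups did not overlap but nearly touched, at 11.1 and 11.2 CPM, and the difference did not pass (log2 fold change -0.18, SE 0.0710, edgeR adjusted p = 0.0536). Nr4a1 passed, as lower, when libraries were scaled by their size only (adjusted p = 0.024), with a filter of 50 counts in 3 libraries (0.0468), and without IL-10-producing replicate 2 (0.0493) or IL-10-negative replicate 2 (0.0249).

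Nr4a2 (Nurr1, ENSMUSG00000026826.13, chromosome 2, 57106830 to 57124003) stood at 0.874, 0.803 and 0.663 CPM in the IL-10-producing libraries, against 1.00, 0.478 and 0.835 CPM in the IL-10-negative libraries. IL-10-negative replicate 2 was the lowest of the 6 and replicate 1 the highest, so the groups overlapped fully (log2 fold change 0.03, SE 0.286, edgeR adjusted p = 0.956). Nr4a3 (Nor1, ENSMUSG00000028341.9, chromosome 4, 48045153 to 48086447) was the gene of lowest level, with 6, 9 and 6 counts in the IL-10-producing and 13, 41 and 20 counts in the IL-10-negative libraries. These were 0.112, 0.131 and 0.128 CPM against 0.251, 0.700 and 0.355 CPM, without overlap. Nr4a3 fell by 1.81 on the log2 scale (SE 0.469, edgeR adjusted p = 0.00348). The ratio of summed counts, IL-10-producing over IL-10-negative and scaled for library size, was 0.280, with an exact 95% counting interval of 0.164 to 0.459 that covers counting error only. Nr4a3 passed the low-count filter through the IL-10-negative libraries alone. The filter's threshold, 0.181 CPM, was reached by 0 IL-10-producing and 3 IL-10-negative libraries. At its IL-10-producing level (mean 0.124 CPM) in both populations, Nr4a3 would not have entered the test. IL-10-negative replicate 2 held 41 of the 74 IL-10-negative counts, and without it the call was lost (log2 fold change -1.28, adjusted p = 0.0715).

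Gem (ENSMUSG00000028214.13, chromosome 4, 11704457 to 11714752) stood at 31.1, 31.4 and 29.1 CPM in the IL-10-producing and at 10.7, 9.35 and 9.68 CPM in the IL-10-negative libraries. All IL-10-producing values were far above the IL-10-negative ones, with means of 30.5 ± 1.25 and 9.92 ± 0.712 CPM (SD, n = 3). Its log2 fold change of 1.63 (SE 0.0587, edgeR adjusted p = 4.07e-17) was the 4th largest among the 10400 genes with a mean of at least 5 CPM. Only 14 of those genes were called and at least 2-fold higher, Gem and Egr1 among them. Of 12 tested genes in the list of Gem's own RGK family of GTPases and its partners, Gem included, 5 rose and 2 fell. Of all genes 17.1% rose and 18.6% fell.

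Ier2 and Ier3 share a name but not a sequence family. Ier2 (ENSMUSG00000053560.4, chromosome 8, 84661331 to 84662852), which encodes a small nuclear protein, stood at 81.6, 79.2 and 83.6 CPM in the IL-10-producing libraries, against 77.6, 75.9 and 83.2 CPM in the IL-10-negative libraries. The groups overlapped and the difference did not pass (log2 fold change 0.05, SE 0.0333, edgeR adjusted p = 0.330). Ier3 (ENSMUSG00000003541.6, chromosome 17, 35821684 to 35822923) stood at 15.9, 15.3 and 14.5 CPM against 13.6, 13.0 and 12.5 CPM. The groups did not overlap, and Ier3 was 1.17-fold higher (log2 fold change 0.23, SE 0.0622, edgeR adjusted p = 0.00513). It kept its call in each of the alternatives except the test against a 1.2-fold change.

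Myc (ENSMUSG00000022346.15, chromosome 15, 61985391 to 61990374) stood at 69.9, 69.2 and 65.6 CPM in the IL-10-producing libraries, against 67.9, 69.2 and 67.9 CPM in the IL-10-negative libraries. The IL-10-negative values lay inside the range of the IL-10-producing ones. The means were 68.2 ± 2.29 and 68.4 ± 0.718 CPM (SD, n = 3), with a log2 fold change of -0.001 (SE 0.0317, edgeR adjusted p = 0.984). Genes around Myc were less even. Of 20 genes of the MYC and MAX network 1 rose and 8 fell, with a median log2 fold change of -0.05, beside 17.1% and 18.6% of all genes. T-cell, mast cell and granulocyte markers fell in the same comparison (T-cell sums 111 against 204 CPM, median log2 fold change -2.67), and their part was not tested. Mycn, the relative of Myc that is used in early lymphocyte development, fell from 4.46 ± 0.435 to 0.512 ± 0.0284 CPM, and Mxd4, which competes with Myc for its partner Max, from 116 ± 3.58 to 78.6 ± 3.22 CPM. Usp28, a deubiquitinase that protects Myc protein, fell from 6.00 ± 0.267 to 3.13 ± 0.450 CPM (SD, n = 3). Max fell by 0.12 on the log2 scale (edgeR adjusted p = 0.0201), a call lost without replicate 2 or 3 of either population (adjusted p from 0.0739 to 0.106). Of 39 growth genes known as MYC targets, 18 rose and 1 fell, with a median of 0.07, beside 17.1% and 18.6% of all genes. Ldha, lactate dehydrogenase A, Tfrc, the transferrin receptor, and Cad, an enzyme of pyrimidine synthesis, rose by a log2 fold change of 0.32, 0.33 and 0.22.

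**Figure D3:**
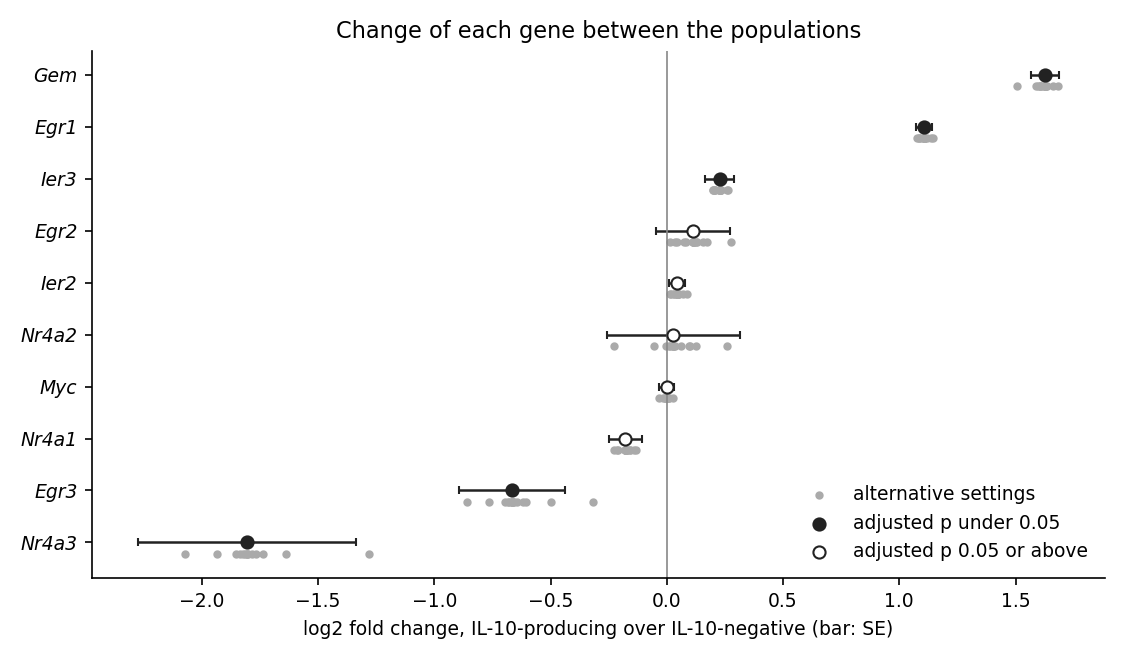
Log2 fold change (IL-10-producing over IL-10-negative) of the 10 genes, with a bar for the standard error. Filled points passed the edgeR test, open points did not, and grey points give the alternative settings; those of Gem and Egr1 stay well above 0, while those of Nr4a2 and Myc lie on both sides of it.

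By level per kilobase of transcript, the order in IL-10-producing libraries was Ier2 (53.5 CPM per kb), Myc (29.2), Egr1 (20.5), Gem (15.2), Ier3 (13.5), Nr4a1 (4.15), Egr2 (0.821), Egr3 (0.230), Nr4a2 (0.219) and Nr4a3 (0.0216). Only Egr3 and Nr4a2 among neighbours in that order overlapped in range. In IL-10-negative libraries Ier2 (51.8 CPM per kb) and Myc (29.2) again stood first, but Ier3 (11.5) came before Egr1 (9.54), and Gem (4.94) overlapped with Nr4a1 (4.70). The last 4 places were the same, from Egr2 (0.760) over Egr3 (0.367) and Nr4a2 (0.216) to Nr4a3 (0.0761). By the longest transcript, Egr1 and Gem thus stood after Ier3 in IL-10-negative and before it in IL-10-producing libraries. Egr2, Egr3, Nr4a2 and Nr4a3 stayed under 3 CPM throughout. The order between genes depends on the length used. For Egr1 the longest transcript had 4484 bases and the coding transcripts a mean of 3760. The order was not computed with mean coding lengths.

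Other immediate early genes did not rise as a group. Of 38 tested, 7 rose and 20 fell, with a median log2 fold change of -0.13, against -0.004 over all genes tested, of which 17.1% rose and 18.6% fell. The markers of T cells, mast cells and granulocytes given above also fell where IL-10 was produced, and their part in these falls was not tested. Fos, the AP-1 subunit that shares the ERK and SRF route with Egr1, rose from 31.5 ± 0.650 to 56.7 ± 2.31 CPM (SD, n = 3). Klf2, a factor of lymphocyte quiescence and egress, fell from 20.6 ± 0.752 to 10.3 ± 1.04 CPM, and Zfp36l1, which promotes mRNA decay, from 116 ± 0.981 to 74.7 ± 1.33 CPM.

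**Figure D4:**
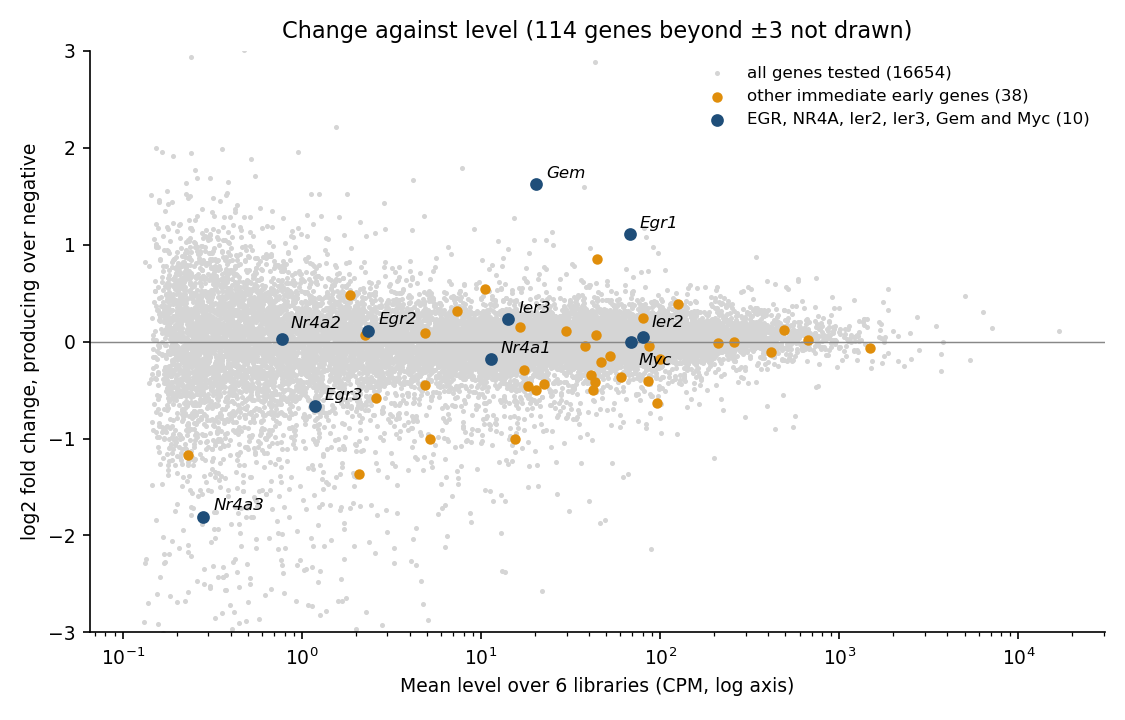
Log2 fold change against mean CPM over 6 libraries (log axis) for all tested genes (grey; 114 beyond 3 in either direction are not drawn), 38 other immediate early genes (orange) and the 10 genes (blue). Gem and Egr1 stand above nearly all genes of their level, and most orange points lie below 0.

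Upstream of the EGR genes, Srf rose from 104 ± 3.20 to 121 ± 2.79 CPM (SD, n = 3). In the list of SRF and its ternary complex partners, 2 of 6 rose and 1 fell, beside 17.1% and 18.6% of all genes. Elk3 rose by a log2 fold change of 0.205, and Elk4, another partner, fell by 0.24 on the log2 scale. In the Ras and ERK cascade 7 of 24 rose and 7 fell (median -0.03), beside the same shares of all genes. Sos1, an exchange factor that activates Ras, rose from 122 ± 1.49 to 149 ± 3.54 CPM, whereas Rasgrp1, another exchange factor, fell from 179 ± 1.73 to 139 ± 2.42 CPM. Rps6ka3, a kinase downstream of ERK, fell by 0.24 on the log2 scale. Of 4 tested genes in the list of EGR partners and repressors, only Nab2 was called, beside 35.7% of all genes. Nab2, a corepressor that EGR factors induce and that binds them in turn, rose from 19.9 ± 0.485 to 23.5 ± 0.492 CPM (SD, n = 3, log2 fold change 0.24, edgeR adjusted p = 0.000385). Nab1, the related corepressor, stood at 83.5 ± 0.511 and 81.6 ± 1.61 CPM and did not pass.

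Among CREB and MEF2 factors and their cofactors, which act on the NR4A genes, 2 of 16 rose and 6 fell (median -0.01). Of all genes tested 17.1% rose and 18.6% fell, and these shares stand beside each count in this paragraph. Mef2d, Crtc3 and Crebbp fell by 0.21, 0.17 and 0.15 on the log2 scale. All 8 listed nuclear receptor partners and coregulators of the NR4A proteins were called, 1 as higher and 7 as lower (median -0.20). Rxra, a heterodimer partner, fell from 53.0 ± 0.781 to 43.7 ± 0.916 CPM (SD, n = 3), and the coactivators Ncoa1 and Ncoa3 fell by 0.25 and 0.24 on the log2 scale. Of 17 tested genes described in lymphocytes as targets of EGR2, EGR3 or NR4A factors, 2 rose and 11 fell (median -0.19). Tox, a factor of T-cell exhaustion, fell from 29.0 ± 1.99 to 15.3 ± 0.311 CPM and Cblb, a ubiquitin ligase that restrains activation, from 41.0 ± 1.44 to 28.1 ± 0.643 CPM. Fasl, the ligand of the death receptor Fas, stood at 1.72 ± 0.219 CPM in IL-10-negative and 0.0276 ± 0.0330 CPM in IL-10-producing libraries. The T-cell marker sums given above were also lower where IL-10 was produced, and their part in these falls was not tested.

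Genes of heat shock and tissue dissociation, which can be induced by handling together with immediate early genes, were also listed. Of 15, 8 rose and 2 fell (median log2 fold change 0.09), beside 17.1% and 18.6% of all genes. The list summed to 6905 against 6444 CPM. Hsp90aa1 and Hspd1, both chaperones, rose by a log2 fold change of 0.26 and 0.22. Hspa1a, an inducible heat shock protein, fell from 2.52 ± 0.278 to 0.759 ± 0.158 CPM (SD, n = 3). Hspa1b, its close relative in the list, stood higher, at 5.64 ± 0.452 CPM in IL-10-negative and 4.75 ± 0.347 CPM in IL-10-producing libraries. Its difference did not pass (log2 fold change -0.25, edgeR adjusted p = 0.0604). Mitochondrial transcripts made up 1.21% to 1.29% of the counts in IL-10-producing and 1.19% to 1.26% in IL-10-negative libraries. The part of handling in the levels of Egr1 and Gem was not tested.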

How the data were processed

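Total RNA of 6 libraries was sequenced, from 10 ng of input each, per the labels' protocols. The tools named in the submitters' processing notes are STAR 2.5.3a, bcl2fastq 2.17.1.14 and Partek, and the build is mm10; the annotation release and the use of strand were not given in the sources used here. The authors deposited estimated counts per gene (50.4% not whole, the smallest gene total 10) and a table of normalized signal, in which all values (100.0%, tolerance 1%) were the count, increased by 1, multiplied by one library-wide factor. It held 9 of the 10 genes. No annotated gene overlapped any of the 10 in GENCODE M21, whose positions equalled the deposited ones for all 19917 matched identifiers once 1 was subtracted from the stop.

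Estimated counts were rounded and tested with edgeR 4.0.16 in R 4.3.3 (quasi-likelihood F test, TMM, filterByExpr with a minimum count of 10 and total of 15, group as the only term, Benjamini-Hochberg adjustment over 16654 genes). Levels are CPM with TMM factors. Levels between genes are CPM per kilobase of the longest transcript. Same-group libraries varied 2.39 to 2.96 times as much as Poisson sampling alone would give, so none was a copy of another. This ratio cannot tell libraries made from one RNA from libraries of different cells. The script was tested on simulated data. The genes and lists were chosen with earlier results of these data known. Named besides the 10 genes were Nab1, Nab2, Srf, Max and the 3 called genes with the smallest p of each list, and, by likeness, the 2 genes per called member with the highest correlation. Some genes that this rule names are not reported here. Alternatives were other normalizations, filters and tools (DESeq2 1.42.0, limma 3.58.1, glmTreat, and limma on log2 of the normalized values plus 1), a GC and length correction (mgcv 1.9.3), a replicate block, and omission of each library in turn.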

Additional observations from a re-analysis of the deposited data

How the results depend on the processing

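Egr1 and Gem kept their direction and their call under all 16 alternatives (log2 fold change of at least 1.08 and 1.51), and Egr2 and Ier2 stayed uncalled under all 16. Over the 10 genes, 137 of 157 alternative values kept direction and side of the threshold. Against the stricter null of a 1.2-fold change, 407 genes were higher and 910 lower, with 30.9% of those calls upward. Of the 10 genes, 1 was lower there and 1 with limma on the authors' normalized values, which hold no Nr4a3. Leaving out single libraries left 1 to 2 lower. With library size only, 36.8% of the calls were higher (47.8% with TMM). The difference between the populations in the share of Egr1, 5.69 percentage points, was 7.59 with mean coding transcript lengths and 4.46 without length scaling, and that of Nr4a1, 0.369, was 1.29 without it. In the same way Egr2 (-3.32) moved to -4.88 and -2.30, Egr3 (-2.37) to -2.71 with mean coding lengths, and Nr4a3 (-1.07) to -2.29 without scaling. Uncalled values changed sign: Nr4a2 was -0.003 with library size only and ran from -0.229 to 0.257 without single libraries; Myc was 0.003 with DESeq2 size factors and with DESeq2, 0.0 with limma-voom, 0.008 after the GC and length correction, and -0.016 to 0.028 without single libraries. With the replicate number as a block 2778 genes were higher and 3039 lower, and no call of the 10 genes changed; same-numbered libraries did not deviate together (correlations -0.048, -0.023 and -0.030), and none correlated best with its own number. Other named genes lost their call in 23 of 528 values and changed sign in 0. Nr4a2, Nr4a3, Egr2 and Egr3 rest on 6 to 188 counts per library, which limits their precision; for the changed calls the cause was not tested.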

Other observations

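By a rule that looked for the genes most like each called member over the 6 libraries (Pearson correlation of log2 CPM, among 9455 or 9456 other genes with a mean of at least 5 CPM), Gem was closest to Tuba1c, an alpha-tubulin gene (r = 0.9998), and Ncapd2, a condensin subunit (r = 0.9992). Egr1 was closest to Srgap3 (r = 0.9995) and Pgam1, a glycolytic enzyme (r = 0.9994). Ier3 was closest to Cdc23, a subunit of the anaphase-promoting complex, and Nup214, a nucleoporin (r = 0.9966 and 0.9961), Egr3 to Klhl21 and Lrch4 (0.9906 each), and Nr4a3 to Plekho1 and Faf2 (0.9943 and 0.9903). Mean levels, IL-10-producing first, were 379 and 306 CPM for Tuba1c, and 308 and 257 CPM for Pgam1. With 2 groups of 3 libraries such values follow mostly the difference between the groups, and they are descriptions of these libraries.

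Within the IL-10-producing population, replicate 3 was the lowest library for 6 of the 10 genes (Egr1, Egr3, Nr4a2, Ier3, Gem and Myc), and for 35.8% of all genes tested. It was the highest for Ier2 alone among the 10.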
